A study of Mus musculus with 74 samples.

Results

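Mouse *mt-TR* fragments whose 3′ CCA end was incomplete made up 42 of the 500 unique *mt-TR* sequences counted in lung small RNA, with 459 of 5606 reads. They were chosen by position alone. Each of the 500 sequences was placed on mature *mt-TR* by exact match, and those whose last base lay at position 69 or 70 were kept, whatever their length. Position numbers are those of the C form of the mature molecule, whose first base is 1 and whose CCA occupies 69 to 71. A sequence that ends at 69 lacks 2 nt of CCA (18 sequences, 149 reads), and one that ends at 70 lacks 1 nt (24 sequences, 310 reads). The fragments with complete CCA, which end at 71, numbered 20 and had 612 reads. The fragments that lack all of CCA and end at 68 numbered 7 and had 12 reads.

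The gene *mt-TR* encodes the mitochondrial tRNA for arginine. The CCA end of a tRNA is not encoded in animal mitochondrial genes but is added after transcription by the CCA-adding enzyme Trnt1, and the amino acid is joined to its terminal A. A tRNA-derived fragment (tRF) that runs to the 3′ end therefore shows in its last bases how much of CCA the sequenced RNA held. Per the methods, liver RNA of later experiments was pretreated to take off joined amino acids and other modifications. No such step is described for the lung RNA. Whether each kind of 3′ end was captured equally was not tested, and shares here are those of sequenced reads.

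Lung small RNA of 6 mouse genotypes, both sexes included, was sequenced in 74 libraries. CC (C57BL/6J), HH (C3H/HeN) and FF (FVB/NJ) are wild-type strains. HC, CH and CF are mitochondrial-nuclear exchange (MNX) strains, made by transfer of pronuclei, in which the first letter gives the nuclear genome and the second the mtDNA. No mouse received a treatment. There were 6 libraries of each sex in each genotype, except that CH females and HC females had 7. The libraries came in 3 batches, as the labels call them, and batch 1 held only CH and HC females, with 3 libraries of each. The tissue is lung in the series title, the sample labels and the methods, whereas the design text names liver. Lung markers could not be checked, because no other gene was counted. The labels state that intact RNA was pooled, without saying whether 1 library is 1 mouse, and p-values here measure the spread between libraries.

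In GRCm38, *mt-TR* (ENSMUSG00000064361.1) lies on the + strand at chrM:9808-9875 and has 68 nt and no intron. Mature *mt-TR* with CCA has 71 nt in C mtDNA, 72 nt in F and 73 nt in H. The types differ in a T and A stretch near the 5′ end, upstream of every trimmed fragment, so that each of the 42 sequences occurs in all 3 types and cannot be assigned to an mtDNA type by its letters. F and H libraries were numbered from the 3′ end. The mature molecule is shown with its CCA in capitals, with T standing for the U of RNA, to show where the fragments lie.
mature mt-TR, C mtDNA: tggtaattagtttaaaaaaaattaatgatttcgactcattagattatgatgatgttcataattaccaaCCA

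The fragments that carried most of the reads are shown as groups with a common start, so that the trimmed forms can be set against the form that ends at 71. The name gives the first and last position, and the capitals mark what is left of CCA. The 5 most counted sequences that end at 69, the 5 most counted that end at 70, and the longest and the shortest sequence are given, with intact partners for 3 starts.
mt-TR 48-69: gatgatgttcataattaccaaC
mt-TR 48-70: gatgatgttcataattaccaaCC
mt-TR 48-71: gatgatgttcataattaccaaCCA
mt-TR 44-69: ttatgatgatgttcataattaccaaC
mt-TR 44-70: ttatgatgatgttcataattaccaaCC
mt-TR 44-71: ttatgatgatgttcataattaccaaCCA
mt-TR 51-69: gatgttcataattaccaaC
mt-TR 51-70: gatgttcataattaccaaCC
mt-TR 51-71: gatgttcataattaccaaCCA
mt-TR 43-69: attatgatgatgttcataattaccaaC
mt-TR 45-69: tatgatgatgttcataattaccaaC
mt-TR 46-70: atgatgatgttcataattaccaaCC
mt-TR 49-70: atgatgttcataattaccaaCC
mt-TR 31-70: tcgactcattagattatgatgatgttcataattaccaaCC
mt-TR 56-70: tcataattaccaaCC

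All 42 sequences share the last 14 nt of the molecule before the trimmed bases (positions 56 to 69, tcataattaccaac in lower case throughout), and they overlap each other over at least that length, so that they are not independent. The gene ends with position 68, so that the genomic part of each trimmed fragment ends at 9875. The fragment mt-TR 48-69, for example, covers chrM:9855-9875 plus 1 C. The next gene, *mt-Nd4l*, starts at 9877 with an A, so that the second C of a fragment that ends at 70 does not match the base there. The base at 9876 was not checked, and if it is a C, fragments that end at 69 cannot be told apart from RNA that was never given a CCA end.

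Position 70 was a common end and position 69 a less common one. Of the 40 positions at which any fragment ended, 71 ranked first by reads with 10.9% of all *mt-TR* reads, 70 ranked 3 with 5.53% and 69 ranked 17 with 2.66%. The next ends inside the molecule were rare, with 12 reads (0.214%) at 68 and 9 reads (0.161%) at 67. Reads were thus counted at each of the last 3 positions, and few at the positions just before CCA. Of the trimmed reads, 67.5% (95% Wilson interval 63.1 to 71.7) ended at 70. Intervals cover counting error only. The methods describe removal of duplicate reads by molecular identifiers, without saying whether the lung libraries carried them.

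Trimmed fragments were short, as were all counted *mt-TR* sequences, none of which was longer than 42 nt. Longer fragments, with starts further upstream, are thus not among these counts, which does not show that they were absent from the RNA. The trimmed reads had a median length of 23 nt, and the 42 trimmed sequences ranged from 15 to 40 nt. Median lengths were 22 nt for fragments that end at 69, 23 nt for those that end at 70 and 24 nt for those that end at 71. The most frequent lengths were the same 22, 23 and 24 nt, with 56, 77 and 157 reads, and each of these is the fragment that starts at 48. The medians thus differed by the bases missing from CCA, and the median start was 48 for all 3 ends. The longest sequence, mt-TR 31-70 (40 nt, 1 read in HC female replicate 1), begins at the first base of the anticodon. The shortest, mt-TR 56-70 (15 nt, 1 read in CH female replicate 2), begins with the 3′ strand of the T stem.

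The starts fell mostly in the T arm, the hairpin next to the acceptor stem. Stems were placed by complementarity of the C sequence, with an acceptor stem of 7 pairs (1 to 7 with 61 to 67), an anticodon stem of 5 pairs (24 to 28 with 36 to 40) and a T stem of 5 pairs (45 to 49 with 56 to 60). The 5′ strand of the T stem held the starts of 10 of the 42 sequences and 247 of the 459 reads. The stretch between the anticodon and T stems (41 to 44) held 8 sequences with 101 reads. The T loop (50 to 55) held 10 sequences with 86 reads. The 3′ strand of the anticodon stem held 7 sequences with 16 reads, and the anticodon loop (29 to 35) 6 sequences with 8 reads. The remaining sequence was mt-TR 56-70.

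Of the trimmed reads, 90.2% started between 43 and 54, against 96.4% of reads that end at 71. Starts before 43 were seen in 43 trimmed reads (9.37%) and in 22 reads that end at 71 (3.59%). G was the first base of 43.8% of trimmed reads, A of 30.7%, T of 24.4% and C of 1.09%. For reads that end at 71 the shares were 41.99% for G, 39.4% for A, 18.1% for T and 0.490% for C. The first bases follow from the starts, and mt-TR 48-69, mt-TR 48-70 and mt-TR 48-71 all begin with G.

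Most trimmed fragments had an intact partner, meaning a counted sequence with the same start that ends at 71. Partners were found for 35 of the 42 sequences, that is for 17 of the 18 that end at 69 and for 18 of the 24 that end at 70. The 7 sequences without a partner had 8 reads in all. Trimmed fragments began at 24 positions, of which 18 were also starts of fragments ending at 71, and 17 starts were seen with all 3 ends. Only 2 starts (30 and 34) were seen with complete CCA and without a trimmed form, each with 1 read. At the level of the whole series, nearly all trimmed reads therefore belonged to a start that was also seen with complete CCA.

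Within a library the partner was often missing. A trimmed sequence was counted in a given library 201 times, and its partner was counted in the same library in 83 of these (41.3%). By reads, 220 of 459 (47.9%, 43.4 to 52.5) had the partner in their own library. The share was 48.3% for end 69 and 47.7% for end 70. At these low counts a partner that was not counted was not detectable at the depth of the library, which does not show that it was absent. Of the 42 sequences, 15 had 1 read in 1 library, and 5 sequences with at least 30 reads each held 237 of the 459 reads.

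The fragments that start at 48, the fourth base of the T stem, were the most counted with each end. The fragment mt-TR 48-70 had 77 reads in 22 libraries, led by CH female replicate 3 with 12, FF male replicate 6 with 8, and CH male replicates 1 and 2 with 6 each. The fragment mt-TR 48-69 had 56 reads in 12 libraries. It had 12 reads in HH female replicate 5, 10 in CF female replicate 5, 10 in HC male replicate 3, 7 in CH male replicate 3 and 5 in HC male replicate 1. The intact mt-TR 48-71 was counted 157 times in 26 libraries, with 45 of these reads in CH female replicate 3 and 29 in HC female replicate 3. The libraries with most reads thus differed between the ends, and HC female replicate 3 had 29 reads of mt-TR 48-71, 3 of mt-TR 48-70 and none of mt-TR 48-69. The partner was present in 15 of the 22 libraries with mt-TR 48-70 and in 10 of the 12 with mt-TR 48-69. All 3 forms occurred together in 7 libraries.

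Fragments that start at 43, 44 and 45, up to the first base of the T stem, were counted more often trimmed (ends 69 and 70 summed) than intact. The fragment mt-TR 44-70 had 38 reads in 14 libraries and mt-TR 44-69 had 13 reads in 7, against 41 reads of mt-TR 44-71 in 14 libraries. The highest values of mt-TR 44-70 were 6 reads in CH female replicate 2 and 5 in CH male replicate 5, whereas mt-TR 44-71 reached 7 reads in FF male replicate 6, where neither trimmed form was counted. The partner was present in 4 of the 14 libraries with mt-TR 44-70. The fragment mt-TR 43-69 had 14 reads in 4 libraries, 8 of them in FF male replicate 6, and its partner mt-TR 43-71 had 24 reads in 13 libraries. The fragment mt-TR 45-69 had 10 reads in 3 libraries (5 in CF male replicate 6, 4 in HC male replicate 1 and 1 in HC female replicate 2). Its partner mt-TR 45-71 had 17 reads in 8 libraries, none of them among these 3. For mt-TR 43-69 and mt-TR 45-69, 1 library thus held 8 of 14 and 5 of 10 reads, whereas no library held more than 6 of the 38 reads of mt-TR 44-70.

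Fragments that start at 46, 49 and 51 were counted more often intact. The fragment mt-TR 46-70 had 36 reads in 12 libraries, with 9 in CH female replicate 3, and mt-TR 46-71 had 88 reads in 23 libraries. The fragment mt-TR 49-70 had 30 reads in 11 libraries, led by FF male replicate 4 (6 reads) and HC female replicate 4 (5 reads), and mt-TR 49-71 had 87 reads in 22. The fragments mt-TR 51-70 and mt-TR 51-69 had 24 reads in 10 libraries and 17 reads in 9, against 72 reads of mt-TR 51-71 in 20 libraries. These trimmed forms were spread thinly, and no library held more than 9 reads of any of them.

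The share of trimmed reads among all reads that end at 69, 70 or 71, here called 3′ end reads, was 42.9% (39.9 to 45.8) over all libraries and varied with the start. It was 56.4% (31 of 55 reads, 43.3 to 68.6) at start 43 and 55.4% (51 of 92, 45.3 to 65.2) at 44. At 45 it was 63.0% (29 of 46, 48.6 to 75.5). These intervals include equal numbers of trimmed and intact reads. It was 32.8% (43 of 131) at 46, 45.9% (133 of 290) at 48, 28.1% (34 of 121) at 49, 36.3% (41 of 113) at 51, 39.3% (24 of 61) at 52 and 5.88% (1 of 17) at 53. At start 36, the first base after the anticodon loop, 10 of 11 reads were trimmed (90.9%, 62.3 to 98.4), from 10 libraries. Pooled, starts up to 45 had 59.7% trimmed (154 of 258 reads, 53.6 to 65.5) and starts from 46 had 37.5% (305 of 813, 34.3 to 40.9). The boundary between 45 and 46 was set after the values were seen and carries no test. Without batch 1 the shares were 65.2% and 47.2%, and within batch 1 they were 51.5% and 25.1%.

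Start positions were compared within libraries, since the start was not used to choose the fragments. In the 23 libraries with at least 5 trimmed and 5 intact reads, trimmed reads started at position 46.4 ± 1.71 on average (mean of library means ± SD) and intact reads at 47.9 ± 1.84. Trimmed reads started earlier by 1.49 nt (difference −1.49 ± 2.38, SD, n = 23), and earlier in 19 of 23 libraries. Single libraries ranged from −6.40 in CF male replicate 5 to 3.34 in FF male replicate 6. The 4 libraries with a later mean start were CH female replicate 1, HH female replicate 5, CF male replicate 2 and FF male replicate 6. The mean difference was smaller than its SD between libraries and differed from 0 in a two-sided sign-flip permutation test (p = 0.00675, Benjamini-Hochberg adjusted p = 0.0247 over 11 tests). It was −1.34 (p = 0.164) in the 8 libraries with at least 10 reads of each kind, −1.14 (p = 0.108) with end 70 alone, −1.22 (p = 0.0942) with end 69 alone and −0.780 (p = 0.322) with each distinct sequence counted once, in the same permutation test, and these values did not pass the threshold.

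Trimmed fragments were found in 55 of the 74 libraries. The libraries held 0 to 1280 *mt-TR* reads (median 35), and 3 libraries had none. The 16 libraries with *mt-TR* reads and no trimmed read held at most 47 reads each. Both ends were seen in 25 libraries, end 70 alone in 20 and end 69 alone in 10. In 44 libraries trimmed reads occurred beside reads that end at 71, in 11 without them, and 9 libraries had only reads that end at 71. Trimmed reads outnumbered reads that end at 71 in 29 libraries and were fewer in 33. The median over the 55 libraries was 5 trimmed reads, the maximum was 33 (CH female replicate 3), and 19 libraries had at least 10.

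Pooled over libraries, 26 of 83 3′ end reads were trimmed in CC (31.3%, 22.4 to 41.9), 135 of 392 in CH (34.4%, 29.9 to 39.3) and 64 of 150 in CF (42.7%, 35.03 to 50.7). In HC 134 of 301 were trimmed (44.5%, 39.0 to 50.2), in FF 44 of 67 (65.7%, 53.7 to 75.9) and in HH 56 of 78 (71.8%, 60.97 to 80.6). Without batch 1, which held CH and HC alone, 55 of 108 were trimmed in CH (50.9%, 41.6 to 60.2) and 72 of 127 in HC (56.7%, 48.0 to 64.99). The pooled values of FF and HH were highest with and without batch 1, but they rest on few libraries, with 25 of the 67 FF reads in FF male replicate 6 and 37 of the 78 HH reads in HH female replicate 5. HH males had 13 trimmed reads and no read that ends at 71, so that 13 of 13 were trimmed (77.2 to 100). Of these, 11 were in HH male replicate 6 and 1 each in HH male replicates 2 and 5. End 70 made up 82.2% of trimmed reads in CH, 75% in FF, 69.2% in CC, 61.9% in HC, 60.7% in HH and 48.4% in CF.

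By library, the trimmed share of 3′ end reads did not differ between genotypes beyond the spread between libraries. Of the 47 libraries with at least 5 such reads, CC had a mean of 34.7% ± 24.2 (SD, n = 6; lowest 12.5%, median 27.4%, highest 80.0%) and CF 44.5% ± 26.6 (n = 10; 16.7%, 31.4%, 100%). CH had 45.1% ± 28.0 (n = 10; 0%, 40.5%, 100%) and HC 48.3% ± 23.4 (n = 11; 7.14%, 52.8%, 75%). FF had 63.2% ± 29.1 (n = 5; 16.7%, 68%, 90.9%) and HH 69.8% ± 31.3 (n = 5; 28.6%, 70.3%, 100%). The ranges of all genotypes overlapped. The highest and the lowest mean were 35.1 percentage points apart (two-sided permutation test, labels exchanged among libraries of 1 sex and batch, p = 0.164, adjusted p = 0.341). Without HH female replicate 4 the gap was 45.4 points (permutation p = 0.0475) and without CC male replicate 4 it was 44.1 points (permutation p = 0.0370).

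Comparisons by mtDNA type, nuclear genome, sex or batch did not pass the test in this share either, and the size of several gaps moved with the settings. Means differed by at most 9.81 points between mtDNA types (permutation p = 0.568, adjusted p = 0.568), and by 19.2 points with all libraries that had at least 1 such read (permutation p = 0.172). They differed by 20.8 points between nuclear genomes (42.5% for C, 55.02% for H and 63.2% for F, permutation p = 0.186, adjusted p = 0.341). The nuclear gap was 38.6 points with at least 10 such reads per library (permutation p = 0.0956), 9.24 points by distinct sequences (permutation p = 0.549) and 32.4 points without FF female replicate 4 (permutation p = 0.0390). Males were higher than females by 8.83 points (53.8% and 44.99%, permutation p = 0.325, adjusted p = 0.397), and by 15.5 points with end 69 alone set against 71 (permutation p = 0.0698). Among CH and HC females, batch 1 had 35.6% ± 11.6 (n = 6) and later batches 49.7% ± 43.9 (n = 5; exact permutation p = 0.495, adjusted p = 0.544).

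As a share of all *mt-TR* reads, trimmed fragments did differ between genotypes. This share was computed for the 61 libraries with at least 10 *mt-TR* reads and falls when any other fragment is more abundant. FF was highest with 24.01% ± 15.6 (SD, n = 8; lowest 7.14%, median 22.6%, highest 45.9%), and CH followed with 15.5% ± 8.24 (n = 12; 0%, 18.0%, 25%). HC had 9.56% ± 8.53 (n = 11; 0%, 10.1%, 21.2%), CF 9.01% ± 8.05 (n = 12; 0%, 7.33%, 23.9%) and HH 6.87% ± 6.94 (n = 8; 0%, 6.82%, 20.0%). CC was lowest with 3.40% ± 3.48 (n = 10; 0%, 2.49%, 8.57%). All 8 FF libraries with at least 10 reads held trimmed reads, but these libraries had only 10 to 37 *mt-TR* reads each. Of all 12 FF libraries, 9 held a trimmed read. Genotype means were up to 20.6 points apart, between FF and CC (permutation test within sex and batch, p = 0.00012, adjusted p = 0.00132). This test was of the gap between the highest and the lowest genotype mean, and FF against CC was not tested alone. Single libraries of FF and CC overlapped, with 7.14% lowest in FF and 8.57% highest in CC. Among all libraries with at least 1 read, the highest and the lowest genotype mean were 18.2 points apart (permutation p = 0.00277). In batch 2 alone the gap was 18.02 points (permutation p = 0.0349). Without FF it was 12.1 points, between CH and CC (permutation p = 0.00589). The mean share of reads that end at 71 was 23.7% in CH, 13.4% in CC, 13.0% in CF, 12.2% in FF, 10.1% in HC and 6.53% in HH, so that its order was not that of the trimmed share.

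Split by nuclear genome, the share was 24.01% for F, 9.66% for C and 8.43% for H (gap 15.6 points, permutation p = 0.00054, adjusted p = 0.00297). With at least 20 *mt-TR* reads per library the gap was 24.8 points (permutation p = 0.00643), and FF was then left with 3 libraries, all of males (replicates 1, 4 and 6). The F nuclear genome occurred only in FF, and without FF the gap was 1.23 points (permutation p = 0.595). Split by mtDNA, it was 15.0% for F, 12.1% for H and 6.62% for C (gap 8.38 points, permutation p = 0.0248, adjusted p = 0.0683), and without FF the gap was 5.44 points (permutation p = 0.145). Males and females differed by 2.28 points (12.4% and 10.1%, permutation p = 0.322, adjusted p = 0.397). Among CH and HC females, batch 1 had 15.1% and later batches 9.25% (exact permutation p = 0.281, adjusted p = 0.397).

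The 6 pairs of an MNX strain with a wild-type strain of the same nuclear genome or the same mtDNA were compared in the same share, in tests added after the values were seen. Some pairs share CC, HH, CH, CF or HC libraries and are not independent. On the C nuclear genome, CH libraries, which carry H mtDNA, were higher than CC by 12.1 points (exact permutation test within sex, p = 0.000918, adjusted p = 0.00551 over 6 pairs). Males of CH had 10.9% to 25% and males of CC 0% to 8.33%, so that males did not overlap among libraries with at least 10 reads. CC male replicate 1, left out with 9 reads, had 11.1%. Among females, CC had 0% to 8.57%, and CH had 17.3% to 21.7% in 4 libraries and 0% in CH female replicates 5 and 6. The latter had 21 and 17 *mt-TR* reads, which allow shares of up to 15.5% and 18.4% by the Wilson interval. CC and CH females shared no batch. Labels permuted within sex and batch gave p = 0.00476 (exact permutation test), the smallest that 210 arrangements allow. Only labels of males were exchanged in that test, because no batch held females of both genotypes. In batch 2 alone the difference was 16.2 points (exact permutation p = 0.0143). It set 4 CH libraries, all male, against 9 CC libraries of both sexes, and labels were again exchanged among males only. With female labels fixed, no arrangement in either test gave as large a difference in the opposite direction. Both p-values are in effect one-sided. The mean share of reads that end at 71 was also higher in CH (23.7%, or 16.8% without batch 1) than in CC (13.4%). Of the 3′ end reads, the trimmed share averaged 45.1% in CH and 34.7% in CC.

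With F mtDNA, CF libraries were lower than FF by 15.0 points (difference −15.0, exact permutation p = 0.00968, adjusted p = 0.0290). In batch 2 alone the difference was −12.6 points (exact permutation p = 0.0786). The ranges of CF and FF overlapped. FF males had 15.2%, 30%, 41.7% and 45.9%, and FF females 7.14%, 7.69%, 11.1% and 33.3%. The other 4 pairs did not pass after adjustment. CH was higher than HH by 8.64 points (exact permutation p = 0.0288, adjusted p = 0.0576), HC higher than CC by 6.16 points (exact p = 0.0452, adjusted p = 0.0678) and CF higher than CC by 5.61 points (exact p = 0.0594, adjusted p = 0.0713). HC and HH differed by 2.68 points (exact permutation p = 0.466).

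Reads were also summed by the position of their last base and tested over all 32 end positions with at least 20 reads, relative to the *mt-TR* reads of the library, with edgeR's quasi-likelihood test and Benjamini-Hochberg adjustment. In CH against CC 0 of the 32 positions were called (0%), with 4 at an unadjusted p under 0.05 and 0 by DESeq2. End 70 was higher in CH by 2.45 ± 0.85 (log2 fold change ± SE, edgeR adjusted p = 0.065), while end 69 had 1.05 ± 1.05 (edgeR adjusted p = 0.653). In CF against CC 0 were called (0%), with 6 at an unadjusted p under 0.05 and 0 by DESeq2. End 69 had a log2 fold change of 2.35 ± 0.89 (edgeR adjusted p = 0.178) and end 70 of 0.76 ± 0.77 (edgeR adjusted p = 0.588). In CF against FF 0 were called by edgeR (0%), with 5 at an unadjusted p under 0.05 and 2 called by DESeq2. End 70 had −2.08 ± 0.76 (log2, edgeR adjusted p = 0.1005) and end 69 −0.09 ± 0.85.

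In HC against HH and in HC against CC edgeR called 0 positions (0% in each), with 1 at an unadjusted p under 0.05 in each and 0 by DESeq2. The log2 fold changes of ends 69 and 70 were 0.70 and −0.23 against HH and 1.00 and 1.096 against CC. In CH against HH 2 of 32 positions were called (6.25%), of which neither was an end of a trimmed fragment, with 5 at an unadjusted p under 0.05 and 1 called by DESeq2. The called positions were end 71, which was higher in CH, and end 53, which was lower. HH males had no read that ends at 71. Of the 257 CH reads that end at 71, 204 came from batch 1, which held no HH library. Ends 69 and 70 had log2 fold changes of 0.75 and 1.12 (edgeR adjusted p = 0.777 and 0.387). Between males and females 0 positions were called (0%), with 2 at an unadjusted p under 0.05 and 0 by DESeq2, and both trimmed ends had log2 fold changes of 0.01. With these settings neither end 69 nor end 70 was called in any of the 7 comparisons, while end 70 in CH against CC passed with edgeR's filterByExpr in place of the minimum of 20 reads (log2 fold change 2.45, adjusted p = 0.0341) and end 69 in CF against CC passed with a replicate block (3.31, edgeR adjusted p = 0.0262).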

How the data were processed

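The authors deposited raw read counts per unique *mt-TR* sequence and library. The submitters' processing notes name FastQC 0.12.1, UMI-tools 1.1.6, cutadapt 5.0, BWA 0.7.18, Bowtie 1.3.1 and mm10. Per the methods, reads mapped to mature *mt-TR* without mismatch and found elsewhere in mm10 were removed. The stated length minimum was 16 nt, and the table holds sequences of 15 to 42 nt. Other matches in mm10, and the genomic base after 9875, were not checked here.

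Genotype, sex, replicate and batch came from the labels. Libraries held 0 to 1280 reads, the depth of whole libraries is not used here, and shares of single libraries are imprecise. Gene coordinates came from the GENCODE annotation of GRCm38. Sequences were named by rule: for each end the 5 with most reads, their partners that end at 71, and the longest and the shortest. The members, lists and tests were chosen with earlier results of these data known.

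Shares were compared by two-sided permutation tests (100000 resamples, or exact where stated), within sex and batch for genotypes, mtDNA types and nuclear genomes, within genotype and batch for sex, and within genotype for batch. Benjamini-Hochberg adjustment covered 11 tests, and 6 pairs of genotypes separately. The p-values of CH against CC within batch were in effect one-sided, because only labels of males were exchanged. End positions were fitted with edgeR 4.0.16 in R 4.3.3 over 61 libraries, with a term for each of the 12 genotype and sex groups and for batch, without composition normalization. Alternatives were DESeq2 1.42.0, TMM, other filters, batch 2 alone, no batch term, a replicate block and leaving out each library. The code of the statistics was run on simulated data with less spread between libraries than here (common dispersion of the edgeR fit 0.784). That run checks the code and does not show how many differences would be missed at these read counts. Python 3.11.15, numpy 2.4.6, pandas 2.3.3 and scipy 1.17.1 were used.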

Additional observations from a re-analysis of the deposited data

Results flagged for a closer look

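In the trimmed share of all *mt-TR* reads, 2 libraries stood apart from the others of their group by Dixon's test. FF female replicate 3 had 33.3% trimmed (4 of 12 reads), and the nearest of the other 3 FF females with at least 10 reads had 11.1%, while FF female replicate 1, left out with 2 reads, had 50% (1 read). HC male replicate 1 had 20.0% (22 of 110 reads), and the nearest of the other 3 HC males with at least 10 reads had 3.66%. HC male replicate 4, left out with 8 reads, had 50% (4 reads), so that HC male replicate 1 stood apart only among libraries that passed the minimum. Groups and measures searched numbered 19, and chance flags about 1 in 20 of them. Both libraries belong to batch 2.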

How the results depend on the processing

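The low number of reads limits each library's share. Leaving out 1 library at a time gave gaps or differences, in percentage points, of 28.5 to 45.4 (genotypes), 7.21 to 13.6 (mtDNA), 13.8 to 32.4 (nuclear genomes), 6.52 to 11.0 (sex) and −26.6 to −1.58 (batch) for the trimmed share of 3′ end reads. For the share of all *mt-TR* reads it gave 17.5 to 23.0, 6.76 to 9.17, 12.4 to 18.0, 1.04 to 3.01 and 4.33 to 7.95, with the unadjusted p of the mtDNA gap under 0.05 in the full set (adjusted p = 0.0683) but not without FF male replicate 4, 5 or 6. For pairs of genotypes it gave 11.3 to 13.5 (CH and CC), −17.4 to −11.9 (CF and FF), 4.26 to 6.43 (CF and CC), 4.99 to 7.11 (HC and CC), 7.66 to 10.5 (CH and HH) and 1.52 to 4.56 (HC and HH). The start difference ranged from −1.71 to −1.27 nt. With distinct sequences in place of reads, the genotype gap in the share of 3′ end reads was 36.1 (permutation p = 0.0395), and the batch difference was 3.79, or 3.34 with end 69 alone, against −14.2. The mtDNA gap in the share of all reads was 7.22 with at least 1 read per library, 6.37 with at least 20, 7.44 in batch 2 and 5.44 without FF, and the nuclear gap was 1.23 without FF. The start difference was −1.34 nt with at least 10 reads of each kind (n = 8, sign-flip permutation p = 0.164), −1.14 with end 70 alone, −1.22 with end 69 alone and −0.780 by distinct sequence. Called end positions in CH against CC were 1 with TMM, 1 with filterByExpr (end 70, log2 fold change 2.45, edgeR adjusted p = 0.0341) and 2 with at least 1 read per library. In CH against HH they were 1 with DESeq2, 1 without a filter, 0 in batch 2 and 1 without a batch term. In CF against FF they were 5 with TMM, 2 with DESeq2 and 1 with at least 1 read per library, and between the sexes 1 with at least 1 read per library. Log2 fold changes that turned, none of them called, were those of end 70 in HC against HH (0.33 with DESeq2, 2.79 in batch 2, 0.12 without a batch term), end 69 in CF against FF (1.101 with TMM, 1.34 with DESeq2, 0.046 with at least 1 read, 1.02 in batch 2), end 69 between the sexes (−0.73 in batch 2, −0.38 without a batch term) and end 70 between the sexes (−0.14 with at least 1 read, −0.93 in batch 2, −0.17 without a batch term). The cause was not tested for any of these.

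Replicate numbers did not pair libraries (mean correlation of deviations −0.00596 over 274 same-numbered pairs and 0.000947 over other pairs). With a replicate block, 1 end position was called in CF against CC (end 69, log2 fold change 3.31, edgeR adjusted p = 0.0262) and 1 in CH against HH, and end 70 between the sexes had −0.10.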
